A study of Mus musculus with 11 samples.

Results

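The 8 genes described here encode transcription factors that mark progenitor domains along the dorsoventral axis of the neural tube: the dorsal factors Pax3 and Pax7, the intermediate factors Pax6 and Dbx1, and the ventral factors Nkx6-1, Olig2, Nkx2-2 and Nkx2-9. They were chosen by name, out of 18193 genes on the array, and are represented by 15 of the 34945 probe sets that carry 1 gene symbol. For each gene the probe set with the highest mean over all arrays leads. The arrays measured RNA of C57BL/6 mouse embryos in 4 groups: closed neural tube at E9.5 (3 arrays), open neuroepithelium at E9.5 (3 arrays), closed neural tube at E8.5 (2 arrays) and open neuroepithelium at E8.5 (3 arrays). Open tissue was the neuroepithelium caudal to the point of closure, and closed tissue was the tube that lies just rostral to it. All embryos were kept in 2.5% pancreatin and 0.5% trypsin, for 8 min at E9.5 and 5 min at E8.5, so stage and incubation time cannot be told apart. The tissue kept the notochord attached to it and was pooled by litter, from 111 embryos in all. No label names a mutation or a transgene. Of 12 arrays hybridized, 1 of closed E8.5 tissue was taken out by the authors after their quality checks.

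In the spinal neural tube, Sonic hedgehog from the notochord and floor plate induces the ventral factors, with Nkx2-2 and Nkx2-9 nearest to the source, Olig2 dorsal to them in the progenitors of motor neurons, and Nkx6-1 across all of these domains. Pax3 and Pax7 mark dorsal progenitors under BMP and Wnt signals of the roof plate and surface ectoderm, and neighbouring factors sharpen their borders by repressing each other. Retinoic acid from the somites promotes Pax6 and other progenitor factors as cells leave the caudal zone of FGF and Wnt signalling.

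The promoters of the 3 members with the largest differences between regions, and of Dbx1, the only member with a match to a searched motif, are shown to place these genes in the genome. Each window holds 250 bases before and 50 bases after a transcription start in the RefSeq table of build GRCm38.p6, read 5′ to 3′ on the gene's strand, with each CpG in capitals. Olig2 lies on chr16:91225300-91225599 (plus strand), Nkx6-1 on chr5:101664662-101664961 (minus strand), Pax6 with its first of 2 windows on chr2:105668646-105668945 (plus strand) and Dbx1 on chr7:49636786-49637085 (minus strand).
Olig2: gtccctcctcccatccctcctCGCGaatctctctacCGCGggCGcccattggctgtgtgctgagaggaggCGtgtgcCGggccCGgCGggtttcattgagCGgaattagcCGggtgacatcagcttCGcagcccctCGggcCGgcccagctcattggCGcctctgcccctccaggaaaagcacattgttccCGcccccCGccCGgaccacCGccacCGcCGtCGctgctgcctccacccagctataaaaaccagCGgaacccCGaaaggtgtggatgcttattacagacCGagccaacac
Nkx6-1: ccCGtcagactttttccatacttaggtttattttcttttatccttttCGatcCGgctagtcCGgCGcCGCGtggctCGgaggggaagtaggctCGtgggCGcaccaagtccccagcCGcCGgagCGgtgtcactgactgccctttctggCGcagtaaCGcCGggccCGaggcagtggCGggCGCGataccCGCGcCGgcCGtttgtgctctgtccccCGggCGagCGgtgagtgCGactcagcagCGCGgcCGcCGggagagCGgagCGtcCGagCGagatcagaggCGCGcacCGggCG
Pax6: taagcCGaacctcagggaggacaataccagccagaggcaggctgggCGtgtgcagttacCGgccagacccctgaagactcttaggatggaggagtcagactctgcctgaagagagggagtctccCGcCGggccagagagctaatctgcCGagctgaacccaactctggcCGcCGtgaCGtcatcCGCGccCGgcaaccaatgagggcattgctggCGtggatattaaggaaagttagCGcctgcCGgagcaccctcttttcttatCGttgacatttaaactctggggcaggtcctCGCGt
Dbx1: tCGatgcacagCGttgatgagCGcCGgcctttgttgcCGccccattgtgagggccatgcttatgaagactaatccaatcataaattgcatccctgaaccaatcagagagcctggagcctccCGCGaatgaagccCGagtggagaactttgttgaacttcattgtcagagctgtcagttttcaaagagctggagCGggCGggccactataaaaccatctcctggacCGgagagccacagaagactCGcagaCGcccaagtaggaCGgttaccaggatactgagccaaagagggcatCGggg

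Of the 8 members, 7 matched the promoter table, with 8 windows. All 8 windows held more CpG dinucleotides than the median window of all genes, with 15 (Dbx1 and Nkx2-9) to 40 (Nkx6-1) against 7 in the median of 32851 windows. Most were only moderately above it: those of Dbx1, Nkx2-9, Pax6, Pax7 and Nkx2-2 had more CpG than 65.4% to 70.3% of all windows. The Nkx6-1 window had more CpG than 96.1% of all windows and was 67.3% G and C, and the Olig2 window had 25 CpG and was 65.0% G and C, against a median of 52.7% over all windows. Motifs were searched on both strands. The GLI motif GACCACCCA occurred in 0.253% of all windows, the nuclear receptor site AGGTCA in 16.3%, the Sox motif ACAATGG in 3.66% and the Cdx motif TTTATGG in 2.75%. Among the members' windows the single match was the Sox motif of Dbx1, on the strand opposite to the gene and starting at base 42 of the window printed above. A match is a description of letters in these windows, and the search says nothing of letters outside them.

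Values are log2 signals as deposited. The 11 arrays had medians from 4.80 to 4.90, and at each stage the median difference between regions over all tested genes was 0.00 (E8.5) or -0.01 (E9.5). Tissue labels were set against marker genes. Of 11 neural progenitor genes 8 were higher in closed than in open tissue at E9.5 and 7 at E8.5. Sox2, a general neural progenitor factor, had values from 10.99 to 11.63 over all arrays and was higher in closed tissue at E9.5 by 0.43 (adjusted p 0.0117), while its E8.5 difference of 0.10 did not pass (adjusted p 0.850). Of 11 caudal progenitor genes, closed tissue had lower levels of 9 at E9.5 and of 10 at E8.5. Of 7 tested presomitic mesoderm genes 1 was higher and 3 lower in closed tissue at E9.5, and 0 higher and 3 lower at E8.5. Hes7 among them was lower by -3.12 and -3.87. Of 9 surface ectoderm genes 1 was higher and 2 lower at E9.5, and 1 higher and 4 lower at E8.5. The part of such cells in the members' differences was not tested. Closed E8.5 replicate 2 stood apart in somite genes: the mean log2 signal of 12 somite and dermomyotome genes was 5.28 on it and 4.32 on closed E8.5 replicate 1, against 4.10 to 4.26 on the other 9 arrays. The 3-prime minus 5-prime signal of the control probe sets, which is larger in shorter RNA, was 1.20 to 1.72 in closed E9.5, 1.14 to 2.48 in open E9.5, 1.18 to 1.82 in closed E8.5 and 1.15 to 1.32 in open E8.5 tissue. It was 1.18 on closed E8.5 replicate 2 and 1.82 on replicate 1.

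Genes were tested where their mean over 11 arrays reached 4.30, the 40th percentile of all probe sets, which 13338 genes did. Among the members 7 passed. Nkx2-2, at a mean of 4.33, lay just inside this limit, and Pax7, at 4.08, just outside it. In open tissue the means of Olig2 and Nkx2-2 were below the limit, so both passed through closed tissue alone and had to differ between regions. Dbx1 was close to the limit in open tissue. Differences are on the log2 scale, with open tissue subtracted from closed or the earlier stage from the later, and come from a limma fit of all tested genes with Benjamini-Hochberg adjusted p-values. In bulk tissue, fewer cells of a type and less RNA per cell cannot be told apart.

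All 7 tested members were higher in closed neural tube than in open neuroepithelium, at E9.5 and at E8.5, with 1.7-fold to 15.5-fold differences at E9.5 and 2.6-fold to 17.0-fold differences at E8.5. The largest difference at both stages was that of Olig2; Nkx6-1 was next at E9.5 (3.33, against 3.13 for Pax6) and Pax6 at E8.5 (3.83, against 2.97 for Nkx6-1). Of all 13338 tested genes 8.54% were past the threshold of 0.05 at E9.5 (2.75% higher in closed tissue) and 7.17% at E8.5 (3.79% higher in closed tissue). Over both stages together all 7 were higher too, against 5.13% of tested genes higher and 11.9% past the threshold in either direction. The members' arrays did not overlap between regions at E9.5 for any of the 8 members, with closed tissue above, which held for 8.82% of tested genes. At E8.5 closed tissue lay above for 7 members (14.9% of tested genes) and below for Pax7 (12.6% of tested genes). Since the filter itself selected members that are high in one region, these counts are a description.

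**Figure D1:**
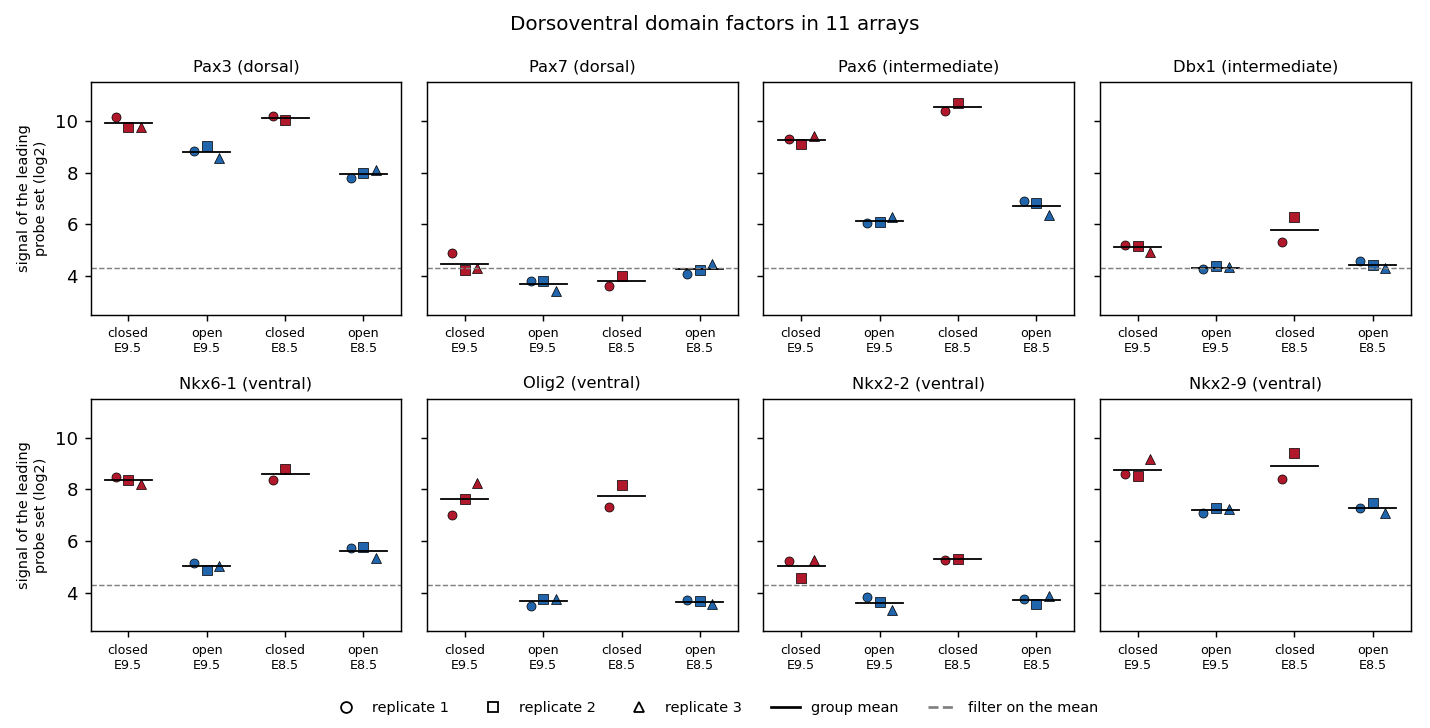
Log2 signal of each member's leading probe set on 11 arrays, with closed tissue in red, open tissue in blue, the replicate number by marker shape, the group mean as a bar and the filter of 4.30 as a dashed line. Closed arrays lie above open arrays of the same stage in every panel except Pax7 at E8.5. The height of one panel is not comparable with that of another, since probe sets differ in their response.

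Among the ventral members, Olig2 (probe set 1416232_at), the factor of motor neuron and later oligodendrocyte progenitors, gave 6.99, 7.63 and 8.23 in closed E9.5 tissue, against 3.47, 3.76 and 3.75 in open E9.5 tissue. The E8.5 signals were 7.30 and 8.18 in closed tissue, against 3.72, 3.69 and 3.55 in open tissue. Every closed array was at least 3 log2 units above every open array, and the open arrays were below the filter limit. Olig2 was higher in closed tissue by 3.95 at E9.5 (SE 0.28, adjusted p 3.04e-06) and by 4.09 at E8.5 (SE 0.31, adjusted p 6.08e-06). Its open values lie near the bottom of the scale, where a log2 signal no longer follows RNA amount, so the differences may understate the ratio.

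Nkx6-1 (probe set 1425828_at), which spans the ventral progenitor domains and is needed for motor neuron fate, gave 8.48, 8.36 and 8.20 in closed E9.5 tissue, against 5.13, 4.89 and 5.04 in open E9.5 tissue. At E8.5 it gave 8.38 and 8.78 in closed tissue, against 5.73, 5.78 and 5.32 in open tissue. Its groups were tight, with SDs of 0.12 to 0.28, and far apart between regions. The difference was 3.33 at E9.5 (SE 0.16, adjusted p 1.44e-07) and 2.97 at E8.5 (SE 0.18, adjusted p 8.57e-07). Open tissue was 5.02 ± 0.12 at E9.5 (SD, n = 3) and 5.61 ± 0.25 at E8.5 (SD, n = 3). The stage difference in open tissue, -0.59, did not pass the threshold (adjusted p 0.0575).

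The factors of the most ventral progenitor domain, Nkx2-2 and Nkx2-9, were also higher in closed tissue at both stages. Nkx2-2 (probe set 1421112_at) gave 5.23, 4.56 and 5.26 in closed E9.5 tissue, against 3.83, 3.63 and 3.32 in open E9.5 tissue, and at E8.5 it gave 5.27 and 5.32 in closed tissue, against 3.77, 3.54 and 3.87 in open tissue. Closed E9.5 replicate 2 was the lowest closed array and still 0.69 or more above the highest open one. Nkx2-2 was higher in closed tissue by 1.42 at E9.5 (SE 0.19, adjusted p 3.86e-04) and by 1.57 at E8.5 (SE 0.21, adjusted p 4.97e-04). Its open values, like those of Olig2, were below the filter limit, so the size of its difference may be understated. Any comparison of this size with other members carries the same limit.

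Nkx2-9 (probe set 1422284_at), which Sonic hedgehog induces early and transiently in the ventral midline region, gave 8.60, 8.50 and 9.19 in closed E9.5 tissue, against 7.07, 7.29 and 7.25 in open E9.5 tissue. On the E8.5 arrays it gave 8.40 and 9.42 in closed tissue, against 7.27, 7.48 and 7.07 in open tissue. The open arrays lay close together and the closed ones spread over about 1 log2 unit, without overlap. Nkx2-9 was higher in closed tissue by 1.56 at E9.5 (SE 0.25, adjusted p 0.00180) and by 1.63 at E8.5 (SE 0.28, adjusted p 0.00307). Its open tissue signal was above the filter limit, like that of Nkx6-1, at 7.20 ± 0.12 at E9.5 and 7.27 ± 0.21 at E8.5 (SD, n = 3 each). Without closed E8.5 replicate 2 its E8.5 difference was 1.12 (adjusted p 0.0299).

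Pax6 (probe set 1419271_at), which covers a broad intermediate and ventral territory and sets the border with Nkx2-2, gave 9.30, 9.10 and 9.42 in closed E9.5 tissue, against 6.06, 6.08 and 6.28 in open E9.5 tissue. Its E8.5 signals were 10.39 and 10.70 in closed tissue, against 6.92, 6.85 and 6.38 in open tissue. By their means the 4 groups were ordered closed E8.5, closed E9.5, open E8.5 and open E9.5. Pax6 was higher in closed tissue by 3.13 at E9.5 (SE 0.16, adjusted p 2.57e-07) and by 3.83 at E8.5 (SE 0.18, adjusted p 2.08e-07). In closed tissue it was lower at E9.5 than at E8.5, by -1.27 (SE 0.18, adjusted p 0.00257), a 0.41-fold level. In open tissue the stage difference of -0.57 did not pass the threshold (adjusted p 0.0729).

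Dbx1 (probe set 1457012_at), the factor of the progenitors that flank the middle of the tube and give rise to commissural interneurons, gave 5.22, 5.17 and 4.95 in closed E9.5 tissue, against 4.26, 4.39 and 4.34 in open E9.5 tissue. At E8.5 it gave 5.32 and 6.28 in closed tissue, against 4.60, 4.41 and 4.32 in open tissue. Closed E8.5 replicate 2 was the highest array, 0.96 above replicate 1. Dbx1 was higher in closed tissue by 0.78 at E9.5 (SE 0.20, adjusted p 0.0271) and by 1.36 at E8.5 (SE 0.22, adjusted p 0.00206). The E9.5 call was lost when any one of closed replicate 1 or 2 or open replicate 1 or 2 was left out (adjusted p from 0.0637 to 0.101), and the E8.5 difference was 0.87 without closed E8.5 replicate 2 (adjusted p 0.00573).

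Of the dorsal members, Pax3 (probe set 1441743_at), which marks the dorsal plate and the neural crest and is needed for closure of the tube, had a leading signal of 10.17, 9.78 and 9.77 in closed E9.5 tissue, against 8.84, 9.05 and 8.57 in open E9.5 tissue. Pax3 at E8.5 gave 10.19 and 10.06 in closed tissue, against 7.80, 7.99 and 8.10 in open tissue. Both closed groups lay together at the top, open E9.5 was intermediate and open E8.5 lowest. Pax3 was higher in closed tissue by 1.09 at E9.5 (SE 0.16, adjusted p 7.63e-04) and by 2.16 at E8.5 (SE 0.17, adjusted p 8.77e-06). In open tissue it rose with stage, by 0.86 at E9.5 relative to E8.5 (SE 0.16, adjusted p 0.00698), and in closed tissue the stage difference was -0.21 (SE 0.17, adjusted p 0.887). In the same comparison of open tissue 3 of 4 tested blood genes rose, with Hbb-y higher by 5.18 (adjusted p 7.99e-04) and Hba-x by 2.36 (adjusted p 5.48e-04), and the mean log2 signal of 6 blood genes was 7.22 to 7.37 at E9.5, against 4.81 to 5.90 at E8.5. Of 9 neural crest genes 1 rose there, Ets1, by 1.09 (adjusted p 0.0277). The part of these cells in the Pax3 rise was not tested.

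The difference between regions was thus 1.07 smaller at E9.5 than at E8.5 for Pax3 (interaction -1.07, 95% confidence interval -1.58 to -0.56), with an adjusted p of 0.0531, which did not pass the threshold. With the replicate number within each stage as a block the interaction was -1.14 and passed it (adjusted p 0.00923), while with 1 block per number over all groups it was -1.03 and did not pass (adjusted p 0.113). The Pax3 rise in open tissue did not pass the threshold when all probe sets of the gene were averaged (0.66, adjusted p 0.202), nor when the 2 open E9.5 arrays with the highest 3-prime signal, replicates 1 and 2, were left out (0.61, adjusted p 0.249).

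The other 2 Pax3 probe sets were read over all 23203 probe sets tested one by one. The first, 1420389_at, gave 9.17, 8.57 and 9.46 in closed E9.5 tissue, against 7.74, 7.80 and 8.30 in open E9.5 tissue, and the second, 1430335_a_at, gave 7.63, 7.21 and 8.47, against 5.80, 5.86 and 7.05. Closed arrays were above open ones in both sets, with more scatter than in the leading set. Their differences at E9.5, 1.12 and 1.53, had adjusted p-values of 0.107 and 0.110 and did not pass the threshold. At E8.5 they were 2.17 (adjusted p 0.00733) and 2.00 (adjusted p 0.0656). In the second set the open tissue differed between the stages by 0.26 (adjusted p 0.830), against 0.86 in each of the other sets (adjusted p 0.0122 in the leading set and 0.265 in the first). The interactions of these 2 sets were -1.05 (adjusted p 0.664) and -0.47 (adjusted p 0.918) and did not pass.

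**Figure D2:**
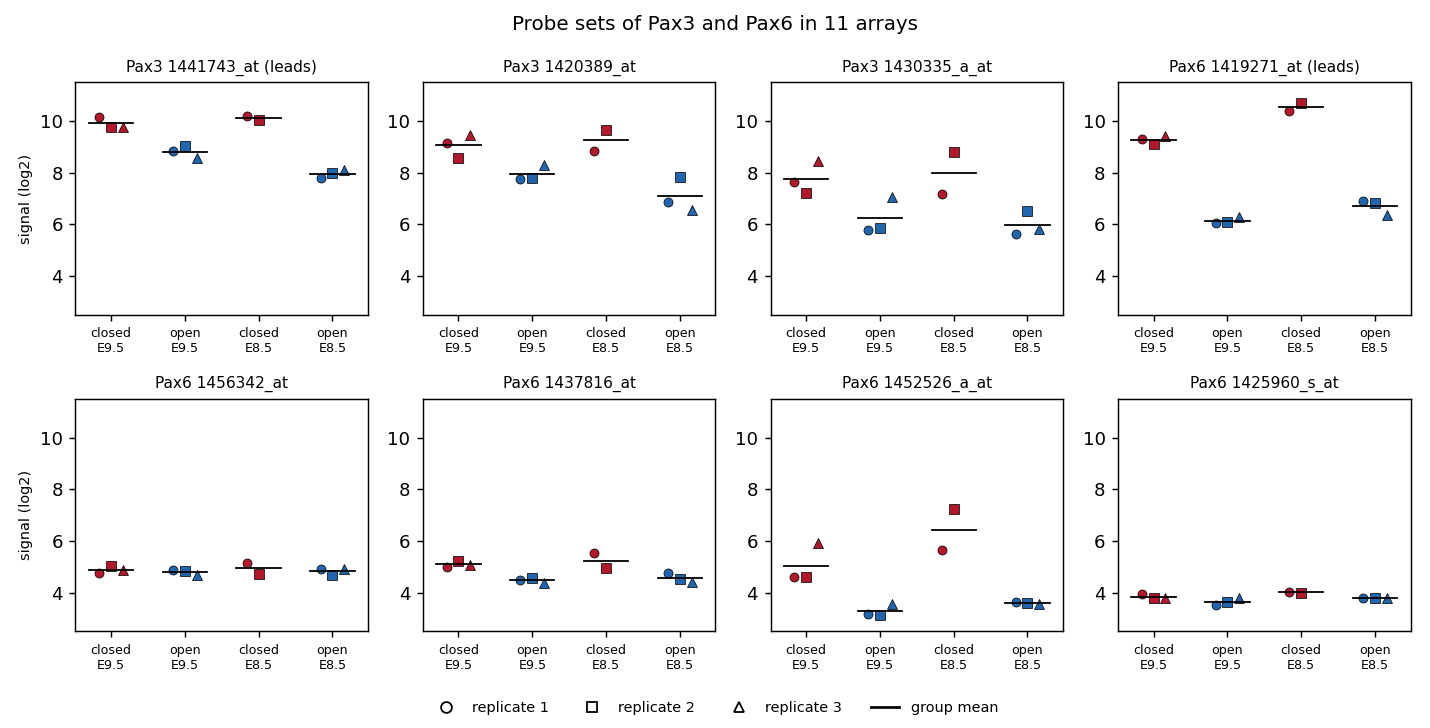
Log2 signal of the 3 probe sets of Pax3 and the 5 probe sets of Pax6 on 11 arrays, with closed tissue in red and open tissue in blue. Closed E9.5 replicate 3, open E9.5 replicate 3 and closed E8.5 replicate 2 are the highest of their groups in 1430335_a_at and 1452526_a_at. They are also the highest in 1420389_at and in the leading Pax6 set, and not in the leading Pax3 set.

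The 5 Pax6 probe sets also spread. The set 1452526_a_at gave 4.60, 4.61 and 5.91 in closed E9.5 tissue, against 3.15, 3.15 and 3.55 in open E9.5 tissue, and 5.64 and 7.24 in closed E8.5 tissue, against 3.63, 3.59 and 3.54 in open E8.5 tissue. It was higher in closed tissue by 1.75 at E9.5 (adjusted p over probe sets 0.0266) and by 2.85 at E8.5 (adjusted p 0.00330). The set 1437816_at differed by 0.62 (adjusted p 0.0360) and 0.66 (adjusted p 0.0522), and 1456342_at by 0.08 and 0.10 (adjusted p 0.829 and 0.980). The set 1425960_s_at, at 3.52 to 4.03 on all arrays, was below the filter. Between the stages in closed tissue 1452526_a_at differed by -1.41 (adjusted p 0.246), 1437816_at by -0.13 and 1456342_at by -0.05. None of these passed the threshold, unlike the leading set. The arrays with high values in 1452526_a_at and in the Pax3 set 1430335_a_at had low 3-prime minus 5-prime signals in their groups: 1.20 on closed E9.5 replicate 3, 1.14 on open E9.5 replicate 3 and 1.18 on closed E8.5 replicate 2. In the same order these arrays gave 9.42, 6.28 and 10.70 in the leading Pax6 set, the highest of their groups. They were also the highest of their groups in the Pax3 set 1420389_at. The part of RNA length in these probe sets was not tested. Over the leading sets, closed E8.5 replicate 2 was above replicate 1 for 7 of 8 members, from -0.13 (Pax3) to 1.02 (Nkx2-9).

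Pax7 (probe set 1444596_at), the paralogue of Pax3 in dorsal progenitors, was near the low end of the scale on every array. Its leading probe set gave 4.91, 4.24 and 4.30 in closed E9.5 tissue, against 3.83, 3.81 and 3.43 in open E9.5 tissue. At E8.5 it gave 3.63 and 4.01 in closed tissue, against 4.06, 4.25 and 4.45 in open tissue. Closed tissue thus lay above open tissue at E9.5 (difference 0.79) and below it at E8.5 (difference -0.44), without overlap at either stage. In a fit of all 18193 genes without a filter the E9.5 difference passed the threshold (SE 0.18, adjusted p 0.0211), while the E8.5 difference (SE 0.21, adjusted p 0.426) and the interaction of 1.23 (SE 0.28, adjusted p 0.0682) did not. The second Pax7 probe set, at 3.37 to 3.95 on all arrays, did not share the turn in sign: it differed by 0.36 at E9.5 and by 0.18 at E8.5. At these levels the array shows little of Pax7, and its direction at E8.5 is not settled.

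**Figure D3:**
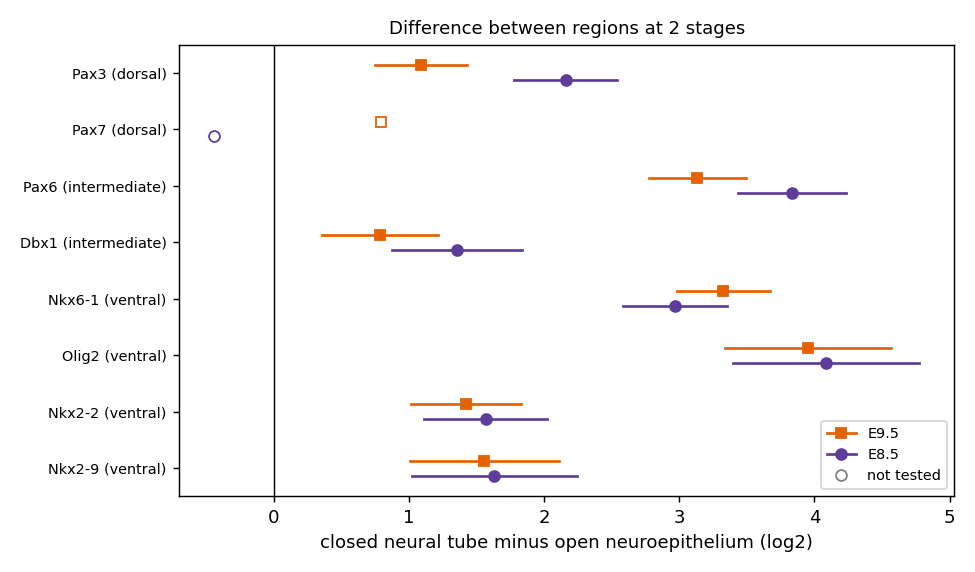
Closed minus open log2 difference of each member's leading probe set at E9.5 (orange squares) and E8.5 (purple circles), with 95% confidence intervals from the limma fit, and open symbols for Pax7, which was not tested. The E9.5 interval of Pax3, 0.75 to 1.43, lies below its E8.5 interval, 1.78 to 2.54, while the intervals of the ventral members overlap between the stages.

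The dorsal and ventral members were then set side by side. At E9.5 the leading Pax3 set differed between regions by 1.09, less than each ventral member (1.42 to 3.95). At E8.5 it differed by 2.16, inside their range (1.57 to 4.09). Its E9.5 confidence interval (0.75 to 1.43) lay below those of Nkx6-1 and Olig2. It overlapped those of Nkx2-2 (1.02 to 1.83) and Nkx2-9 (1.01 to 2.11). The Pax3 set 1430335_a_at differed by 1.53 at E9.5, above Nkx2-2 (1.42) and below Nkx2-9 (1.56). The set 1420389_at differed by 1.12, below both. The E9.5 order of Pax3 against Nkx2-2 and Nkx2-9 is thus not settled. Olig2 and Nkx2-2 were below the filter limit in open tissue, so the size of their differences, and of the mean below, rests in part on signals near the floor of the array. Against Nkx6-1 and Nkx2-9, which were above the limit on every array, Pax3 also had the smaller value at E9.5 (3.33 and 1.56), and a value between theirs at E8.5 (2.97 and 1.63). The mean of the 4 ventral members was subtracted from Pax3 on each array; only differences of this value between arrays have a meaning. It was 2.85, 2.52 and 2.05 in closed E9.5 tissue, against 3.97, 4.15 and 3.73 in open E9.5 tissue. At E8.5 it was 2.85 and 2.13 in closed tissue, against 2.68, 2.87 and 3.14 in open tissue. Closed and open arrays were apart at E9.5, by -1.48, and overlapped at E8.5, with a difference of -0.40 against a within-group SD of 0.33. The E8.5 value was -0.04 without closed E8.5 replicate 2 and -0.76 without replicate 1. No test was made of this value, since its genes were chosen with earlier results known.

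**Figure D4:**
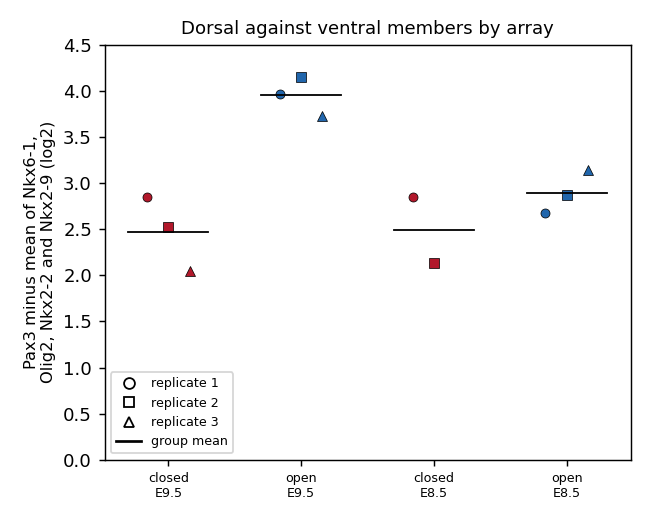
Leading Pax3 signal minus the mean of Nkx6-1, Olig2, Nkx2-2 and Nkx2-9 on each of 11 arrays (log2), with group means as bars; the zero of the axis has no meaning because probe sets differ in response. The 3 open E9.5 arrays, at 3.73 to 4.15, lie above all others, which range from 2.05 to 3.14.

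Across stages in closed tissue 1 of 7 tested members passed the threshold, Pax6, which was lower at E9.5; 2.42% of all tested genes passed, 1.46% with lower values at E9.5. The ventral members differed by -0.12 (Olig2) to -0.28 (Nkx2-2), with 95% confidence intervals that all included 0, the widest from -0.81 to 0.56 for Olig2. Dbx1 differed by -0.69 (adjusted p 0.183), which did not pass the threshold. In this comparison Dbx1 was -1.17 (adjusted p 0.00270) without closed E8.5 replicate 1 and -0.21 (adjusted p 0.729) without replicate 2. In open tissue 1 of 7 passed, Pax3, which was higher at E9.5; 5.02% of all tested genes passed, 3.61% with higher values at E9.5. Olig2 differed there by 0.01, Nkx2-2 by -0.13, Nkx2-9 by -0.07 and Dbx1 by -0.12, all within the spread of their groups.

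For the interaction of region and stage 0 of 7 members passed the limma test, against 1.25% of all tested genes. Without adjustment 2 of 7, Pax3 and Pax6, had a limma p under 0.05. The share of all genes under that unadjusted limit was not counted. Ranked by p among 13338 tested genes, Pax3 was at 174, Pax6 at 634 and Dbx1, with an unadjusted p of 0.0770, at 1739. The Pax6 interaction was -0.70 (adjusted p 0.321). The ventral members had interactions from -0.15 (Nkx2-2) to 0.36 (Nkx6-1), with 95% confidence intervals as wide as -1.05 to 0.79 for Olig2, so a change of the region difference by up to about 1 log2 unit could not be seen for it.

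The other genes of dorsoventral patterning did not all follow the members. Of 14 tested dorsal progenitor and roof plate genes 4 were higher and 3 lower in closed tissue at E9.5, and 4 higher and 4 lower at E8.5, with medians of 0.09 and -0.05. Over all tested genes the shares were 2.75% higher and 5.79% lower at E9.5, and 3.79% higher and 3.38% lower at E8.5. Zic1, a dorsal zinc finger factor, was higher by 4.58 at E9.5 (adjusted p 1.44e-07) and by 5.29 at E8.5 (adjusted p 1.74e-07), and Msx3, a homeobox gene of the dorsal tube, by 2.37 and 2.54. The BMP ligand Bmp4 was lower in closed tissue by -0.72 at E9.5 (adjusted p 0.0130) and by -0.83 at E8.5 (adjusted p 0.0115), Zic5 was lower by -1.05 at E9.5 (adjusted p 3.03e-04), and Bmp7 was lower by -0.83 at E8.5 (adjusted p 0.00418). Of 7 tested intermediate and ventral progenitor genes 5 were higher and 1 lower at E9.5, and 4 higher and 0 lower at E8.5, with medians of 1.93 and 1.41. Olig1, the neighbour and paralogue of Olig2, was higher by 2.59 (adjusted p 1.27e-05) and 2.86 (adjusted p 1.41e-05), and the proneural factor Neurog2 by 2.78 (adjusted p 4.25e-07) and 1.68 (adjusted p 6.56e-05). Irx3, which borders the Olig2 domain dorsally, was higher by 2.01 at E9.5 and by 1.41 at E8.5 (adjusted p 3.72e-04). Sp8 was lower by -0.94 at E9.5, while its E8.5 difference of -0.58 did not pass (adjusted p 0.107).

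Of 13 tested hedgehog genes 5 were higher and 0 lower at E9.5, and 5 higher and 1 lower at E8.5, with medians of 0.37 and 0.35. Shh, the ligand, gave 11.16, 10.92 and 11.18 in closed E9.5 tissue, against 10.29, 10.22 and 10.54 in open E9.5 tissue, and 9.99 and 10.23 in closed E8.5 tissue, against 11.06, 11.12 and 10.81 in open E8.5 tissue. It was higher in closed tissue at E9.5, by 0.74 (adjusted p 0.00292), and lower at E8.5, by -0.89 (adjusted p 0.00191). The tissue kept the notochord attached. Of 5 tested notochord genes, Shh among them, 2 were higher and 1 lower at E9.5, and 0 higher and 2 lower at E8.5. Chrd was the other lower one at E8.5, by -0.72 (adjusted p 0.00593). The part of Shh level or of notochord cells in the ventral members' differences was not tested. Scube2, which helps release the ligand from cells, was higher by 4.53 (adjusted p 1.44e-07) and 4.55 (adjusted p 3.03e-07), and the co-receptor Gas1 by 1.04 (adjusted p 1.30e-04) and 1.32 (adjusted p 5.17e-05). The direct target and receptor Ptch1 differed by 0.26 (adjusted p 0.115) and 0.35 (adjusted p 0.0562), and the target Gli1 by 0.73 (adjusted p 0.272) and 0.92 (adjusted p 0.260).

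Of 14 tested retinoic acid genes 4 were higher and 2 lower in closed tissue at E9.5, and 6 higher and 3 lower at E8.5, with medians of 0.30 and 0.43. Aldh1a2, the enzyme of retinoic acid synthesis, was higher by 2.87 (adjusted p 7.04e-08) and 3.50 (adjusted p 6.34e-08), and the receptor gene Rarb by 2.94 (adjusted p 1.35e-05) and 4.04 (adjusted p 2.93e-06). Cyp26a1, which breaks retinoic acid down, was lower by -5.28 (adjusted p 1.32e-07) and -4.11 (adjusted p 1.96e-06). The receptor gene Rarg was lower by -1.20 at E9.5 (adjusted p 0.0168) and by -1.69 at E8.5 (adjusted p 0.00430). Rxrg was lower by -0.88 at E8.5 (adjusted p 0.00165). Of 16 tested genes of the neurons that arise from these domains 2 were higher and 1 lower at E9.5, and 1 higher and 1 lower at E8.5. The motor neuron factor gene Mnx1, which is also active in notochord and caudal tissue, was lower in closed tissue by -2.25 (adjusted p 9.45e-05) and -2.81 (adjusted p 4.11e-05), and the neuronal gene Elavl4 was higher by 1.09 (adjusted p 4.49e-04) and 0.71 (adjusted p 0.0187). Its relative Elavl3 was higher by 0.50 at E9.5 (adjusted p 0.0241). Of 11 tested other Pax, Nkx, Dbx and Olig genes 2 were higher and 1 lower at E9.5, and 1 higher and 1 lower at E8.5; Olig3, of dorsal progenitors, was higher by 1.43 at E9.5 (adjusted p 0.00450), and the lower one was Nkx1-2, a caudal progenitor gene, by -1.63 and -1.83.

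**Figure D5:**
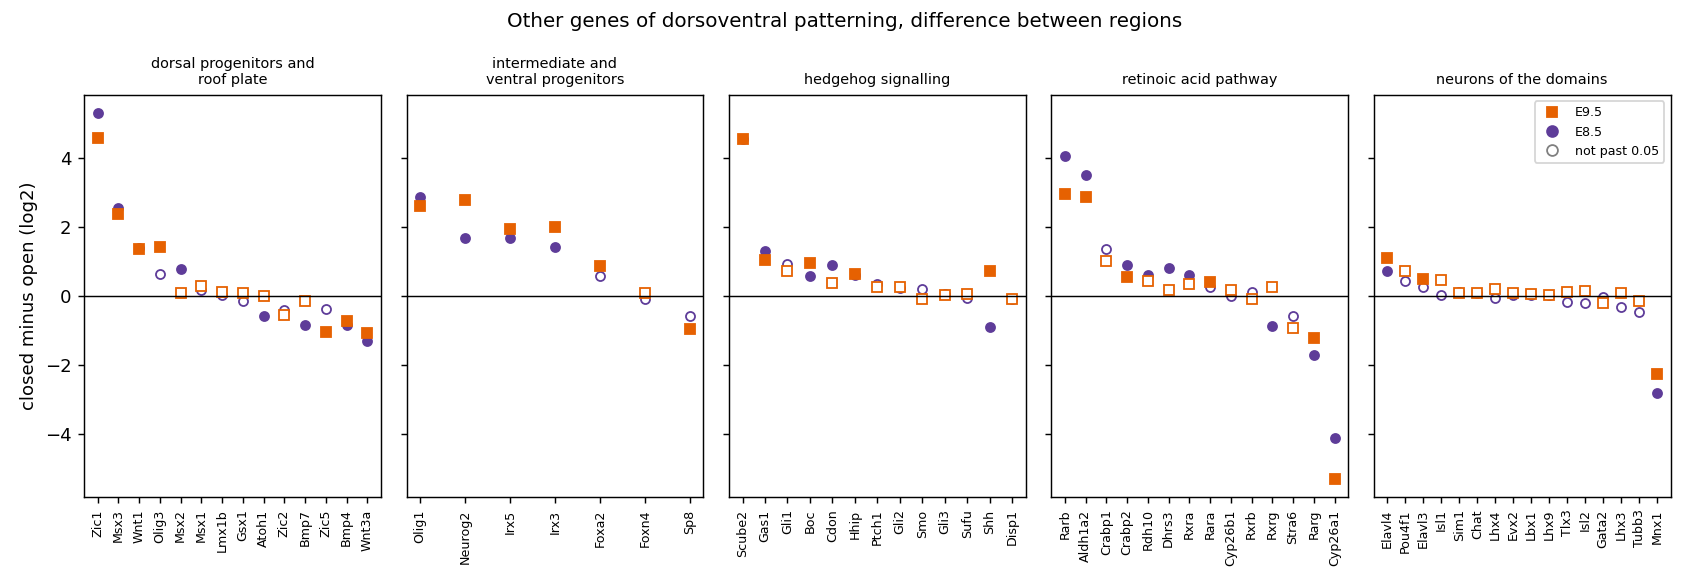
Closed minus open log2 difference at E9.5 (orange squares) and E8.5 (purple circles) for the tested genes of 5 lists, each ordered by the difference over both stages, with open symbols where the adjusted p was not under 0.05. Zic1, Scube2, Rarb and Aldh1a2 lie highest and Cyp26a1 and Mnx1 lowest, and Shh lies on opposite sides of 0 at the stages.

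Neural crest and dermomyotome also express Pax3, so their markers are given beside it. The mean log2 signal of 9 neural crest genes was 6.99 to 7.19 in closed E9.5 tissue, against 5.36 to 5.80 in open E9.5 tissue, and 6.50 to 7.07 in closed E8.5 tissue, against 5.41 to 5.59 in open E8.5 tissue. At each stage 5 of these 9 genes were higher in closed tissue, 0 were lower and 4 did not pass. Those of smallest p were Ednrb, an endothelin receptor gene, higher by 4.81 (adjusted p 1.04e-07) and 4.20 (adjusted p 5.42e-07), and Sox9, higher by 1.97 (adjusted p 1.27e-05) and 1.24 (adjusted p 0.00122); Sox9 is also known from neural progenitors. Foxd3, an early crest factor, was higher by 2.16 (adjusted p 0.00763) and 1.99 (adjusted p 0.0267), and Sox10, of migrating crest, differed by 0.40 (adjusted p 0.225) and 0.15 (adjusted p 0.912), which did not pass, nor did Snai2, another crest factor, at -0.70 (adjusted p 0.0933) and -0.22 (adjusted p 0.895). The part of crest cells in the Pax3 difference was not tested. Of 12 somite and dermomyotome genes, 7 were below the filter, 5 were tested and 0 passed limma's test at either stage. Over both stages together 1 of them, Meox1, was higher in closed tissue (0.90, adjusted p 0.0413). Its E8.5 difference of 1.39 did not pass (adjusted p 0.0530). Without closed E8.5 replicate 2, which had the high somite signal, the E8.5 difference of Pax3 was 2.23, against 2.16 with it. This leaves closed E8.5 replicate 1 alone in its group. Its mean somite signal of 4.32 was itself above the 4.10 to 4.26 of the other groups, so leaving out replicate 2 cannot decide the part of somite cells. The part of somite cells in the Pax3 difference was not tested.

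The genes whose profile over 11 arrays was most like that of a member, by the root mean square difference after each gene was set to its own mean, were counted among all tested genes. For Pax6 they were Aldh1a2 (0.20), Rarb (0.27) and Mir124-2hg (0.27), against a spread of Pax6 around its own mean of 1.74. For Nkx6-1 they were Spon1 (0.24), Meis1 (0.28) and Fez1 (0.29), and for Olig2, at larger distances, Prdm8 (0.50), Fez1 (0.51) and Scube2 (0.53). For Nkx2-2 they were Ildr2 (0.24), Tcf7l1 (0.26) and Chl1 (0.28), and for Nkx2-9 Wnt1 (0.22), Emid1 (0.23) and Efnb3 (0.25). For Pax3 they were Gpm6b (0.23), Spsb4 (0.26) and Lama1 (0.29), whose region differences at E9.5 were 0.99, 1.45 and 0.56, and for Dbx1 C130026L21Rik (0.18), Pappa (0.20) and Rhbdl3 (0.21). For Pax7, which itself varied by only 0.39, they were Zfp280c, Stk32c and Slc24a3 (0.24 to 0.27). All these genes share the arrays and the contrast of regions with the members.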

How the data were processed

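RNA of open neuroepithelium and closed neural tube, pooled by litter, was labelled in 2 cycles from 50 ng and measured on Affymetrix whole-genome mouse arrays, per the labels' protocols. The deposited log2 values cover 45101 probe sets. MAS5 is named in the submitters' processing notes, without a version, and the summary and normalization of the deposited log2 values are not given in the sources used here. Values were used as deposited. Per the platform annotation 34945 probe sets carry 1 symbol, 932 several and 9160 none, and 64 are controls. The fit used limma 3.58.1 in R 4.3.3 with 4 group means, all contrasts and an intensity trend (7 residual and 4.40 prior degrees of freedom). It was tested on simulated data. Each array of a group counted as its own sample. P-values measure only the spread between these arrays, and the number of arrays limits the precision. The members and lists were chosen with earlier results of these data known. Named genes were the members, the 3 genes of most like profile, and for each of the 6 dorsoventral lists the 2 genes of smallest p in each direction past the threshold by region. Ptch1, Gli1 and the marker genes of other cell types were added after their values were seen.

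Deviations from group means of closed and open arrays with the same replicate number correlated over genes by 0.576 and 0.697 at E8.5 and by 0.308, 0.341 and 0.687 at E9.5, so a block of replicate number within stage was run as an alternative; the reported fit has no block. The labels do not say that they share a litter, and closed replicate 1 at E9.5 correlated as much with open replicate 2 (0.317). With 2 closed arrays at E8.5 their deviations are exact opposites, so the 2 E8.5 correlations are not independent. Closed replicate 1 at E8.5 also correlated with open replicate 3 (0.31). Alternatives were other filters, normalizations, probe set summaries, priors, array weights, sample subsets, RNA quality terms and the replicate block.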

Additional observations from a re-analysis of the deposited data

Results flagged for a closer look

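Pax7 lay on opposite sides at the 2 stages: the difference of closed minus open tissue was 0.79 at E9.5 and -0.44 at E8.5, without overlap of arrays at either stage. In the main fit this turn was not tested, since Pax7 was under the filter; in the fit of all genes its interaction of 1.23 had an adjusted p of 0.0682. The second Pax7 probe set had 0.36 and 0.18, with no turn. All Pax7 values are near the low end of the scale.

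Of the other dorsoventral genes named, 3 differed in their region difference between the stages by the interaction term of limma. The Shh interaction was 1.63 (adjusted p 0.00168), with closed tissue above open tissue at E9.5 and below it at E8.5. Neurog2 had an interaction of 1.10 (adjusted p 0.0468): it averaged 9.67 in closed E9.5 tissue, against 6.89 in open E9.5 tissue, and 9.54 in closed E8.5 tissue, against 7.87 in open E8.5 tissue. The retinoid receptor gene Rxrg had an interaction of 1.15 (adjusted p 0.0102), with a region difference of 0.27 at E9.5 (adjusted p 0.262) and -0.88 at E8.5 (adjusted p 0.00165). No member's interaction passed the threshold in the main fit, and Pax3 came nearest (adjusted p 0.0531).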

How the results depend on the processing

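Over 26 alternatives, the tested members' region differences at E9.5 and at E8.5 were repeated 358 times. All kept their direction, and 351 kept their side of the threshold. Many of these repeats could not turn: other filters, other priors, a limit on size and leaving out an array of the other stage keep the same group means. The repeats are not independent, and Olig2 and Nkx2-2 had to differ between regions, so these totals are a description. The 7 lost calls were of Dbx1 at E9.5 (6 alternatives) and of Nkx2-9 at E9.5 without both open E9.5 arrays of highest 3-prime signal (1.51, adjusted p 0.0531). Dbx1 at E9.5 was also lost there (0.77, adjusted p 0.236) and under a limit of 1 on the size, and it did not pass when open E9.5 replicate 1 or 2 or closed E9.5 replicate 1 or 2 was left out (adjusted p 0.0637 to 0.101). A filter at the 60th percentile left 4 tested members, and 4 were higher at E9.5, at E8.5 and over both stages. The cause of other shifts was not tested.

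Counts of members by stage were less firm. In open tissue 3 members passed with quantile normalization and with array weights, 2 without a trend, 0 with a limit of 1 and 0 without the pair of open E9.5 arrays, and leaving out 1 array each gave 1 to 3. Gained were Nkx6-1 and Pax6, both lower at E9.5: both without open E8.5 replicate 3, Nkx6-1 without either closed E8.5 array and Pax6 without open E9.5 replicate 3. With the mean of all probe sets the 1 member past the threshold was Nkx6-1, and Pax3 was not (0.66, adjusted p 0.202). In closed tissue leaving out 1 array each gave 1 to 2, with Dbx1 gained without closed E8.5 replicate 1 (-1.17, adjusted p 0.00270). For the interaction 1 member, Pax3, passed with array weights, with the 3-prime signal as a covariate (-0.82, adjusted p 0.0371) and with the replicate block within stage, and leaving out 1 array each gave 0 to 1 (Pax3 without open E9.5 replicate 3 or closed E9.5 replicate 1, Dbx1 without closed E8.5 replicate 1). The replicate block changed no other member's call; it raised the count of all genes past the threshold at E9.5 to 2221, against 1139, and for the interaction to 452, against 167. Array weights raised the E9.5 count to 3424 and that of stage in open tissue to 4301, against 670. The 3-prime covariate raised E8.5 to 1519, against 957, E9.5 to 1764, stage in closed tissue to 730, against 323, and the interaction to 297. A limit of 1 left 484 at E8.5, 454 at E9.5, 427 over both stages, against 1593, 161 and 219 for stage in closed and open tissue. Without both open E9.5 arrays 603, 182 and 72 were left at E9.5, for open stage and for the interaction. For stage in closed tissue array weights gave 215 and the compared groups alone 150. Leaving out 1 array each gave 174 to 375 for closed stage, 367 to 1262 for open stage and 84 to 239 for the interaction.

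The dorsal against ventral difference at E8.5 ranged from -0.76 to -0.0437 when 1 array each was left out, and at E9.5 from -1.66 to -1.27. Signs turned only for differences that did not pass the threshold. For stage in open tissue these were Olig2 (-0.11 with array weights, -0.0465 to 0.10 without 1 array), Nkx2-2 (0.0125 with array weights, -0.25 to 0.0064 without 1 array) and Nkx2-9 (0.19 with the 3-prime covariate, -0.17 to 0.0316 without 1 array). For stage in closed tissue they were Olig2 (-0.57 to 0.32) and Nkx2-9 (-0.66 to 0.37). For the interaction they were Olig2 (-0.57 to 0.31), Nkx2-2 (0.0236 with the 3-prime covariate, 0.13 without both open E9.5 arrays, -0.28 to 0.0815 without 1 array) and Nkx2-9 (0.0129 with quantile normalization, 0.0266 with the replicate block within stage, -0.59 to 0.44 without 1 array). Where closed E8.5 or open E9.5 tissue kept a single array, the spread of the remaining groups stood in for its own. Low signal limits Pax7, Nkx2-2, Dbx1 and the open tissue values of Olig2.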
